A study of Mus musculus with 12 samples.

Results

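The emilins and multimerins were examined along the length of the adult mouse cochlea. Of the 5 genes sought by symbol among the non-control probes of the array (*Emilin1*, *Emilin2*, *Emilin3*, *Mmrn1* and *Mmrn2*), 4 were present, with 25 probes among 165658, and stood among 19478 genes in all. *Mmrn1* had no probe under that symbol and was not analysed here. *Emilin1* had 7 probes on chromosome 5 (mm9, chr5:31216190-31223635, plus strand), *Emilin2* 7 on chromosome 17 (chr17:71601638-71660117, minus strand), *Emilin3* 4 on chromosome 2 (chr2:160732175-160737803, minus strand) and *Mmrn2* 7 on chromosome 14 (chr14:35188724-35216914, plus strand). These spans run from the outermost probe to the outermost probe of each gene.

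Emilins and multimerins are secreted glycoproteins of the extracellular matrix that assemble into multimers. They share a cysteine-rich EMI domain near the N terminus and long coiled-coil stretches, and all but emilin-3 end in a globular domain of the C1q type. Emilin-1 lies where elastin meets microfibrils, binds integrins and restrains the release of active TGF-β. Emilin-2 was described in the basilar membrane of the cochlea, the fibrous sheet on which the organ of Corti stands. Multimerin-2 is a product of blood vessel endothelium, and multimerin-1 is stored in platelets and endothelium.

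The samples were cochlear turns of untreated male C57BL/6 mice aged 6 weeks, with 4 arrays each for the apical, middle and basal turn (12 in all), hybridised as 1-colour exon arrays from 25 ng of total RNA. The cochlea is tonotopic: the apex responds to low and the base to high frequencies, and the design asks how expression changes along this axis. Each turn held lateral wall, organ of Corti and spiral ganglion tissue together, and in such bulk tissue fewer cells of a type and less RNA per cell cannot be told apart. The labels and methods name 4 mice, without saying which arrays of different turns share a mouse. The 4 arrays of a turn carried 1 scan date in their file headers. Dates and slides were not compared between turns, and where they differ they cannot be told apart from turn. From 77.4% to 81.4% of spots were well above background on each array, the 75th percentile of the signal before scaling ran from 534 to 722, and the number of arrays limits the precision. Signals are in fluorescence units after each array's 75th percentile was set to 640.8, and the signal of a gene is the geometric mean over its exon probes. Hybridisation of different probes differs, so levels are compared between turns and not between genes.

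Probes of the genes were set side by side for stretches that they share. A search for the best shared stretch always finds one, so this is no test of kinship. The probe over the EMI region of each gene is shown to place the 4 genes side by side. The capitals mark TGGNGNTGCT, a stretch of 10 bases with the most positions identical in these 4 probes (N where they differ), searched for after the probes had been seen.
Emilin1 probe 3, chr5:31217927-31217986, plus strand: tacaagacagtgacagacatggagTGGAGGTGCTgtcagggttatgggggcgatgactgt
Emilin2 probe 3, chr17:71630097-71630156, minus strand: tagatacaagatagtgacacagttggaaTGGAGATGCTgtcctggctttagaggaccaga
Emilin3 probe 3, chr2:160735496-160735555, minus strand: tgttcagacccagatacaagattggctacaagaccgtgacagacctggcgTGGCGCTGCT
Mmrn2 probe 3, chr14:35209579-35209638, plus strand: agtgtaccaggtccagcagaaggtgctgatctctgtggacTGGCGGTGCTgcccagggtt
None of the other member probes held this stretch. Of all 165984 probes of the array, 0.314% held it as printed and 0.556% on either strand. These shares hold for this fixed stretch, and are not the chance that some such stretch is found. A second set covers the C1q-type end of emilin-1 and emilin-2. It is shown because the paired probes are alike while their signals along the cochlea were not. The capitals mark bases identical at the same position, 34 of 60.
Emilin1 probe 6, chr5:31222531-31222590, plus strand: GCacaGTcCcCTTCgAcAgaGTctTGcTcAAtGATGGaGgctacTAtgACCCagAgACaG
Emilin2 probe 6, chr17:71604459-71604518, minus strand: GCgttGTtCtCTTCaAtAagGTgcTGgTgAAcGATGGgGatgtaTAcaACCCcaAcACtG

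*Emilin2* rose steeply from base to apex. On the 4 apical arrays the signal of *Emilin2* was 4377, 3965, 3563 and 4346. On the 4 middle arrays it was 1495, 1653, 2257 and 2181. On the 4 basal arrays it was 298, 292, 304 and 406. Every apical array lay above every middle array, and every middle array above every basal array. The apical turn exceeded the basal turn 12.6-fold (log2 difference 3.65 ± 0.15 SE, 95% interval 3.32 to 3.98, limma adjusted p = 7.3e-08), rank 6 of 19478 genes for a difference in favor of the apex. The middle turn exceeded the basal turn 5.80-fold (log2 difference 2.54, adjusted p = 5.5e-06), rank 2. The apical turn exceeded the middle turn 2.17-fold (log2 difference 1.12, adjusted p = 0.002), rank 57. On the log2 scale the middle turn lay 69.4% of the way from the base to the apex. By way of background, 39.2% of all genes passed the test between apex and base (17.6% in favor of the apex and 21.6% in favor of the base). Between the middle and basal turns 20.8% passed (11.6% and 9.18%), and of apical against middle 12% (4.43% and 7.58%). The share that also met a 2-fold limit was 4.39% (3.27% in favor of the apex), 2.66% (2.2% in favor of the middle) and 0.436% (0.298% in favor of the apex) in that order, and *Emilin2* was among these genes each time, although under spike-in scaling (explained with *Emilin1*) its log2 difference of apex against middle was 0.96 and fell short of 2-fold. Arrays did not overlap for 38.3%, 24% and 20.8% of all genes.

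**Figure D1:**
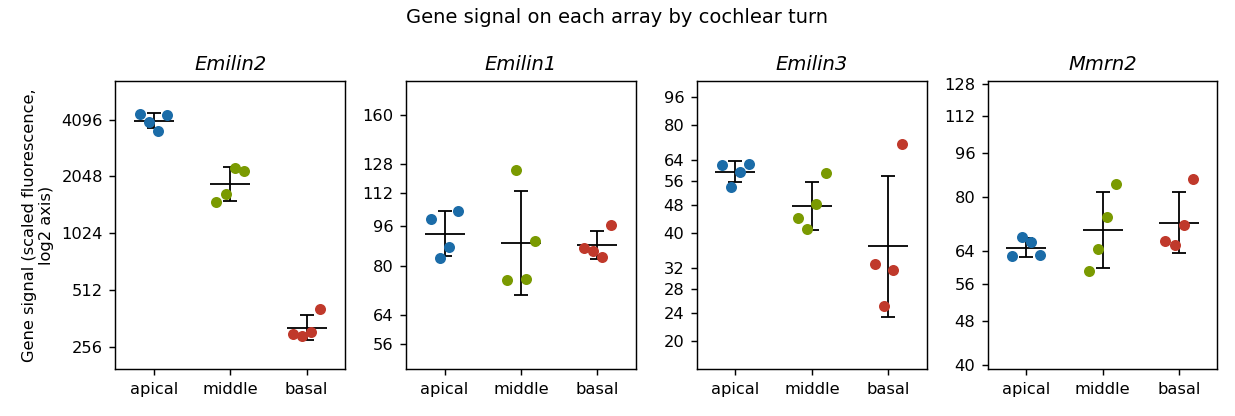
Scaled signal (fluorescence units, log2 axis) of the 4 family genes on each array, by cochlear turn, with each panel on its own range. Points are arrays, horizontal bars geometric means and whiskers the SD on the log2 scale (n = 4). *Emilin2* steps up from 292-406 at the base to 3563-4377 at the apex, while the turns overlap for the other genes.

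The 7 exon probes of *Emilin2* all showed this step. Each was well above background on all 12 arrays, and each passed the test in all 3 comparisons (34.4% of all probes did for apex against base, 18% in the direction of *Emilin2*, 13.8% and 7.75% for middle against base, and 5.9% and 3.04% for apex against middle). The apical to basal ratio ran from 7.13-fold to 17.8-fold along the transcript. Probe 7, at transcript offset 3728, gave 12.2-fold, with an apical mean of 42492 ± 3650 (SD, n = 4) and a basal mean of 3528 ± 749. No spot was saturated. Probe 2, at offset 261, fell from 2676 ± 306 at the apex to 150 ± 19.5 at the base, a ratio of 17.8. Probe 5, at offset 2657, fell from 3548 ± 235 to 499 ± 54.6, a ratio of 7.13. These are shown because they bound the range of the gene.
Emilin2 probe 2, chr17:71659539-71659598, minus strand: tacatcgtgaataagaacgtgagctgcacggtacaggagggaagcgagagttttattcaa
Emilin2 probe 5, chr17:71605777-71605836, minus strand: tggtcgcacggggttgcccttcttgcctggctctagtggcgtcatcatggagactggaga
Against the mean of the other *Emilin2* probes, the difference between apex and base was larger by 0.59 on the log2 scale at probe 2 (adjusted p = 0.00077) and by 0.55 at probe 3 (adjusted p = 0.0017), and smaller at probe 5 (-0.95, adjusted p = 2.7e-05). Such a departure from the other probes of the same gene passed the test at 10.4% of probes. Signal left at probe 5 at the base, 458 to 578 over the 4 arrays, was well above background.

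**Figure D2:**
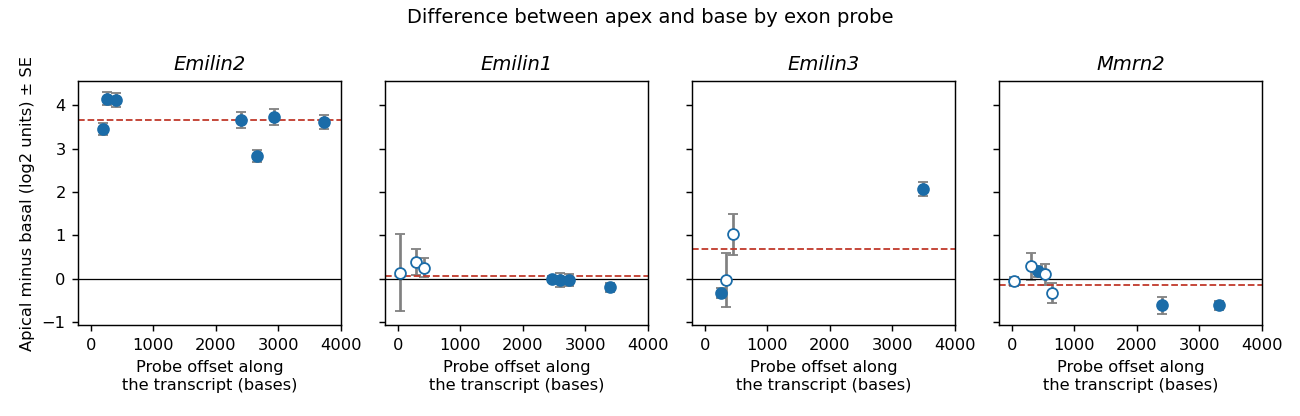
Apical minus basal difference (log2 units, ± SE) of each exon probe against its offset along the transcript (bases), 1 panel per gene. Filled circles are probes well above background on all 12 arrays, open circles the others, and the dashed line is the gene-level difference. All 7 *Emilin2* probes lie between 2.83 and 4.16, and the *Emilin3* probe at offset 3486 stands apart from the others of its gene.

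*Emilin1*, whose product sits at the interface of elastin and microfibrils, gave no detectable difference between turns. The signal of *Emilin1* was 99.5, 82.9, 87.5 and 103 on the apical arrays. It was 75, 125, 75.3 and 89.7 on the middle arrays and 87.1, 85.9, 83.3 and 96.7 on the basal arrays, so that all turns overlapped. Between apex and base the log2 difference was 0.08 ± 0.15 SE (95% interval -0.25 to 0.40, adjusted p = 0.74), an interval that does not reach 2-fold in either direction. The apical to middle and middle to basal differences of *Emilin1* were 0.06 (adjusted p = 0.82) and 0.02 (adjusted p = 0.95). Under spike-in scaling, in which the arrays were set to 10 control probes for added RNA in place of the 75th percentile and which lowered the median apical minus basal difference of all genes from -0.04 to -0.45, *Emilin1* became -0.34 (adjusted p = 0.044). Of its 7 probes, 4 were well above background on all arrays, and no probe passed the limma test in any comparison (0, 1 and 2 of the 7 had an unadjusted p under 0.05 for apex against base, apex against middle and middle against base). Under spike-in scaling, by which 4.7% of all genes passed as higher at the apex and 68.6% as higher at the base, the 4 probes well above background passed as lower at the apex (probes 4 to 7, log2 differences of -0.42, -0.45, -0.45 and -0.62, adjusted p of 0.011, 0.035, 0.017 and 0.0018). Probe 7, at offset 3393, was 2277 ± 295 at the apex, 2337 ± 190 in the middle and 2607 ± 285 at the base (SD, n = 4). Probe 6 of *Emilin1*, the partner of the *Emilin2* probe in the paired sequences above, had a log2 difference of -0.03 between apex and base (0.981-fold), where *Emilin2* probe 6 had 3.73 (13.3-fold).

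The probes of *Emilin3*, the emilin without a C1q-type end, went different ways, and the gene-level test depended on how they were combined. The gene-level signal of *Emilin3* was 62.0, 53.8, 59.3 and 62.3 at the apex. It was 44.0, 41.1, 48.1 and 58.6 in the middle and 32.7, 25.1, 31.5 and 70.7 at the base. Basal replicate 4 was the highest of all 12 arrays, and the other 3 basal arrays lay below all apical arrays. The apical minus basal log2 difference was 0.69 ± 0.26 SE (95% interval 0.12 to 1.26, adjusted p = 0.055). Without basal replicate 4 it was 1.00 (adjusted p = 0.00035), and over the probes well above background alone it was 0.88 (adjusted p = 4.1e-05). It was smaller under spike-in scaling (0.27, adjusted p = 0.34), and with normexp background correction it was 0.26 and passed (adjusted p = 0.025). The middle to basal and apical to middle differences were 0.37 (adjusted p = 0.32) and 0.32 (adjusted p = 0.43).

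Of the 4 *Emilin3* probes, only probes 1 and 4 were well above background on all arrays. Probe 4, at offset 3486, read 213, 248, 266 and 262 at the apex. It read 212, 223, 172 and 198 in the middle, and 57.2, 44.2, 57.6 and 81.4 at the base. The basal arrays lay below all others, and the apex exceeded the base 4.20-fold (log2 difference 2.07 ± 0.16 SE, adjusted p = 1.1e-05). The middle turn exceeded the base 3.41-fold (adjusted p = 0.00015) at this probe, and the apex did not pass against the middle (log2 difference 0.30, adjusted p = 0.27). Probe 1, at offset 261, had the opposite order of means, 235 ± 33.1 at the apex, 252 ± 34.5 in the middle and 291 ± 15.8 at the base (log2 difference -0.32, adjusted p = 0.053). It passed as lower at the apex in 8 of 11 alternatives without a left-out array, among them median scaling (-0.43, adjusted p = 0.017) and spike-in scaling (-0.74, adjusted p = 0.00088). Against the mean of the other probes, the apical minus basal difference was larger by 1.84 at probe 4 (adjusted p = 0.0023) and smaller at probe 1 (-1.34, adjusted p = 0.027). Each of these means took in the dim probes 2 and 3. Probes 2 and 3 were not well above background on most arrays. Probe 2 read 5.9 to 7.0 on 3 basal arrays and 50.3 on basal replicate 4, the only array where it was well above background.

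*Mmrn2*, the multimerin of blood vessels, showed no detectable difference at the level of the gene. Its signal was 62.7, 68.0, 66.5 and 63.1 at the apex. It was 59.1, 64.7, 73.9 and 84.5 in the middle, and 66.8, 65.8, 71.3 and 86.3 at the base, and the turns overlapped. The apical minus basal log2 difference was -0.15 ± 0.11 SE (95% interval -0.40 to 0.10, adjusted p = 0.35), an interval that does not reach 2-fold. The other comparisons gave -0.10 for apex against middle (adjusted p = 0.56) and -0.04 for middle against base (adjusted p = 0.81). Probe 7 of *Mmrn2*, at offset 3316, fell toward the apex. It read 1918, 2045, 2064 and 2582 at the apex, 2502, 2697, 2826 and 3063 in the middle and 3050, 3222, 3358 and 3486 at the base. All basal arrays lay above all apical arrays, and the apex had 0.653 times the basal signal (log2 difference -0.62, adjusted p = 0.00094). Against the mean of the other *Mmrn2* probes this difference was lower (-0.54, adjusted p = 0.019). That mean took in probes 1 and 2, which were not well above background on all apical and basal arrays. This test therefore cannot tell a departure of probe 7 from the effect of dim probes. Probe 6, at offset 2406, gave the same ratio of 0.653 from 97.3 ± 6.28 at the apex to 150 ± 18.3 at the base (adjusted p = 0.035), a call that was lost without any of 7 of the 8 apical and basal arrays (adjusted p of 0.052 to 0.09). Probe 3, the remaining probe well above background on all arrays, gave a log2 difference of 0.17 (adjusted p = 0.35). When the probe signals were averaged before the log2, which gives probes of high signal the most weight, the gene-level difference was -0.57 (adjusted p = 0.00051). Under spike-in scaling it was -0.57 as well (adjusted p = 0.0022). The other 4 *Mmrn2* probes were not well above background on all arrays. Probes 4 and 5 fell short only in the middle turn, and gave apical minus basal log2 differences of 0.10 and -0.32 (limma adjusted p = 0.8 and 0.31). Probe 2 fell short at the apex and base too and probe 1 was above background on no array, so that their differences are not given.

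The step of *Emilin2* differed from the change in each of the other family genes. On the apical minus basal log2 difference, *Emilin2* exceeded *Emilin1* by 3.58, *Emilin3* by 2.96 and *Mmrn2* by 3.80. On middle minus base it exceeded them by 2.52, 2.16 and 2.58, and on apex minus middle by 1.06, 0.80 and 1.22. Each of these 9 comparisons gave p = 0.0286 in a two-sided exact permutation test over 4 against 4 arrays, the smallest p that this design allows, and 0.0286 after Benjamini-Hochberg adjustment over the 9. Since both genes of such a difference come from the same array, it does not depend on how an array was scaled by a common factor.

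**Figure D3:**
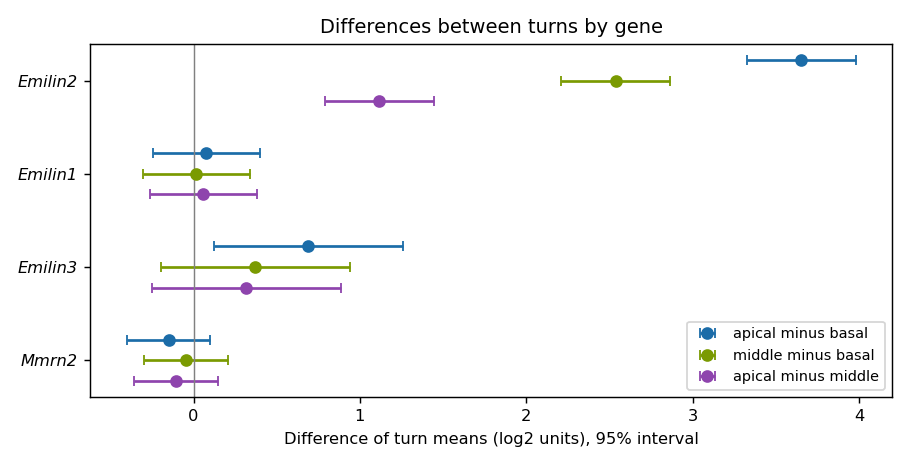
Differences between turn means (log2 units) for the 4 family genes in the 3 comparisons, with 95% intervals from limma (n = 4 arrays per turn). The 3 intervals of *Emilin2* lie above 0, those of *Emilin1* and *Mmrn2* span 0, and that of *Emilin3* lies above 0 for apex against base with an adjusted p of 0.055.

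Elastic fibre and microfibril genes, the matrix that emilins associate with, changed in both directions. Of 26 listed genes 25 were measured, and 12 were higher at the apex, 7 higher at the base and 6 did not pass, against the 39.2% of all genes that passed. The median apical minus basal log2 difference was 0.16 over the list and -0.04 over all genes. Under spike-in scaling 6 were higher at the apex and 14 at the base, against 4.7% and 68.6% of all genes. The median was then -0.26 against -0.45 for all genes. The lysyl oxidase *Lox*, which cross-links elastin and collagen, was lower at the apex (307 ± 36.4 against 755 ± 92.9 at the base, SD, n = 4, log2 difference -1.30, adjusted p = 6.7e-06). The microfibril-associated *Mfap4* was higher at the apex (326 ± 29.6 against 138 ± 17.4, log2 difference 1.24, adjusted p = 1.3e-05), although it did not pass when probe signals were averaged before the log2 (0.08, adjusted p = 0.38). Fibrillin 2, *Fbn2*, a backbone protein of microfibrils, was also higher at the apex (46.3 ± 3.33 against 20.9 ± 1.72, log2 difference 1.15, adjusted p = 6.1e-06). Between middle and base 11 of the 25 were higher in the middle and 5 at the base, where 20.8% of all genes passed. Between apex and middle 5 were higher at the apex and 2 in the middle, where 12% of all genes passed.

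Of 6 other genes with an EMI domain, 5 were measured and 0 met the 2-fold limit between apex and base, which 4.39% of all genes met. In that comparison 1 was higher at the apex and 2 were higher at the base (39.2% of all genes passed). *Pear1*, a receptor of platelets and endothelium, was lower at the apex (341 ± 26.3 against 484 ± 20.5, log2 difference -0.51, adjusted p = 0.00034). *Megf11* had a log2 difference of -0.30 (adjusted p = 0.0021) and did not pass with the median over probes (-0.17, adjusted p = 0.15). *Emid1* was higher at the apex by 0.20 (adjusted p = 0.037), turned to -0.22 (adjusted p = 0.041) under spike-in scaling, and did not pass with quantile (0.07) or median scaling (0.08) or when any of 6 apical or basal arrays was left out.

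All 18 listed binding partners and targets of the family were measured. Between apex and base 2 were higher at the apex and 5 at the base, with a median log2 difference of -0.07, a share close to the 39.2% of all genes that passed. Between apex and middle 0 passed by limma (5 with an unadjusted p under 0.05), against 12% of all genes. Under spike-in scaling 0 were higher at the apex and 13 at the base, against 4.7% and 68.6% of all genes. *Clec14a*, an endothelial lectin receptor that binds multimerin-2, was lower at the apex (94.9 ± 16.7 against 168 ± 27.4, log2 difference -0.82, adjusted p = 0.0022). *Itga4*, the integrin subunit that takes part in binding emilin-1, was higher at the apex (38.4 ± 5.67 against 23.9 ± 1.56, log2 difference 0.67, adjusted p = 0.0032), and did not pass under spike-in scaling (0.25, adjusted p = 0.19). *Tgfb1*, whose product emilin-1 holds back, was lower at the apex (176 ± 24.0 against 261 ± 8.22, log2 difference -0.58, adjusted p = 0.0011).

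Of 23 other genes listed for a C-terminal C1q domain, 22 were measured, 16 of them above background. Between apex and base 2 were higher at the apex and 5 at the base, with a median log2 difference of -0.03, a share that did not exceed the 39.2% of all genes that passed. Under spike-in scaling the counts were 1 and 15, against 4.7% and 68.6% of all genes. *C1ql3*, a secreted synaptic protein, was 1859 ± 162 at the apex and 442 ± 252 at the base (log2 difference 2.22, adjusted p = 0.00027). *Cbln1*, a synapse organizer, was 30.7 ± 6.42 at the apex and 98.7 ± 23.2 at the base (log2 difference -1.68, adjusted p = 0.00011). *C1qtnf1* had a log2 difference of -0.99 (adjusted p = 1.8e-05).

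Of 5 genes of the basilar membrane matrix, where emilin-2 was described, 4 were higher at the apex and 1 at the base, against 17.6% and 21.6% of all genes. With the arrays scaled to the median, to quantiles or to spike-in probes, 2 were higher at the apex and 1 at the base. Of all genes, 11.6% and 32.2% were so with median scaling and 14.9% and 25.6% with quantiles. With spike-in scaling the shares were 4.7% and 68.6%. Tenascin C, *Tnc*, had the largest difference of them (80.6 ± 26.5 at the apex, 15.2 in the middle and 12.9 ± 2.15 at the base, log2 difference 2.60, adjusted p = 3.4e-06). Fibronectin, *Fn1*, read 613 ± 80.5 at the apex, 246 in the middle and 164 ± 7.42 at the base (log2 difference 1.90, adjusted p = 4.5e-07). *Col2a1*, the chain of the main fibrillar collagen of the membrane, was lower at the apex (546 ± 47.0 against 895 ± 80.0, log2 difference -0.71, adjusted p = 5e-05). *Tnc* passed between apex and middle (adjusted p = 0.00012) and not between middle and base (adjusted p = 0.38), whereas *Emilin2* passed in both. The *Tnc* signal was low in the middle and at the base, where a step is hard to see. Its apical minus basal log2 difference ran from 0.87 to 3.02 over the alternatives without a left-out array. Whether *Tnc* and *Emilin2* differ in these steps was not tested.

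**Figure D4:**
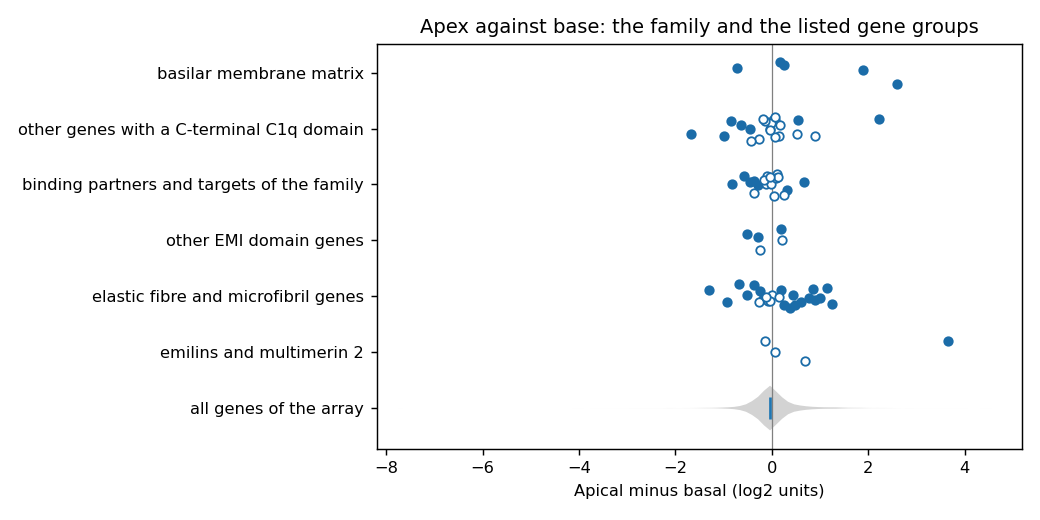
Apical minus basal difference (log2 units) of the family genes and of each gene in the 5 lists, with the distribution over all 19478 genes in grey and its median as a bar. Filled circles passed the test (limma adjusted p under 0.05), open circles did not, and the vertical scatter within a row is only for legibility. *Emilin2* at 3.65 lies to the right of every listed gene, and the elastic fibre genes fall on both sides of 0.

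Marker genes of other cells moved along the same axis. All 6 hair cell markers were higher at the apex than at the base (17.6% of all genes were), with a summed signal of 1887 to 2258 at the apex, 1548 to 1728 in the middle and 505 to 874 at the base, and *Slc26a5*, the motor protein of outer hair cells, had the largest difference (2.94, adjusted p = 1.7e-06). The 4 spiral ligament fibrocyte markers, 4 of 5 stria vascularis markers and all 6 macrophage markers were higher at the base (21.6% of all genes were). The macrophage count fell to 4 without apical replicate 3, basal replicate 1 or basal replicate 2. Under quantile normalization the fibrocyte marker *Car3* (adjusted p = 0.24) and the stria marker *Dct* (adjusted p = 0.13) did not pass, and *Dct* did not without apical replicate 1 or 2 or basal replicate 2 or 4. Their summed signals were 263858 to 287459 at the apex against 517889 to 581755 at the base for the fibrocytes, 22171 to 27187 against 30381 to 44240 for the stria and 2790 to 3453 against 3970 to 4986 for the macrophages. *Dct* made up most of the stria sum (18555 at the apex against 29038 at the base). The part of these cells in the *Emilin2* difference was not tested. Beside *Mmrn2*, 2 of 11 markers of blood vessel endothelium were higher at the apex and 5 at the base, against 17.6% and 21.6% of all genes. The summed signals of the vessel markers overlapped (10205 to 13384 against 11602 to 13500). *Cldn5* (5764 at the apex against 8237 at the base) and *Emcn* (4186 against 1981) made up most of that sum. They went opposite ways, so the overlap says little of the list as a whole. Of 4 lymphatic markers 1 was higher at the apex and 2 at the base, against 17.6% and 21.6% of all genes. *Prox1* was higher at the apex (log2 difference 1.62), and *Lyve1* and *Flt4* were lower there (-0.49 and -0.79). *Pdpn*, which did not pass (670 against 595), made up most of the summed signal (959 to 988 against 783 to 820). None of 7 platelet markers (681 to 857 against 717 to 903) and none of 5 red cell and marrow markers (21555 to 60824 against 28698 to 75745) passed between apex and base by limma, with 1 in each list at an unadjusted p under 0.05. Under spike-in scaling 5 platelet markers were higher at the base, as were 68.6% of all genes. Of 5 bone markers 1 was higher at the base (923 to 3641 against 1915 to 2337), as were 21.6% of all genes. Every one of these lists had markers above background in the tissue.

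The genes with the profile nearest to *Emilin2* were sought among 16485 genes detected in at least 1 turn, by the root mean square difference of log2 signals, each centred on its own 12-array mean. This is a description over 12 arrays that include the turns themselves. The median over all genes was 1.55. The nearest was *Apoa4* (0.18), encoding an apolipoprotein, followed by *Tnfaip6* (0.36), encoding a hyaluronan-binding protein, *Slc26a5* (0.41), the RIKEN gene *4933402N22Rik* (0.47) and *Agr3* (0.50). *Apoa4* read 539, 559, 514 and 598 at the apex, 240, 233, 266 and 290 in the middle and 55.5, 45.4, 52.1 and 54.1 at the base. Its log2 differences were 3.42 between apex and base and 1.11 between apex and middle, against 3.65 and 1.12 for *Emilin2*. *Tnfaip6* had 3.34 and 1.62, and *Slc26a5* had 2.94 and 0.70.

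**Figure D5:**
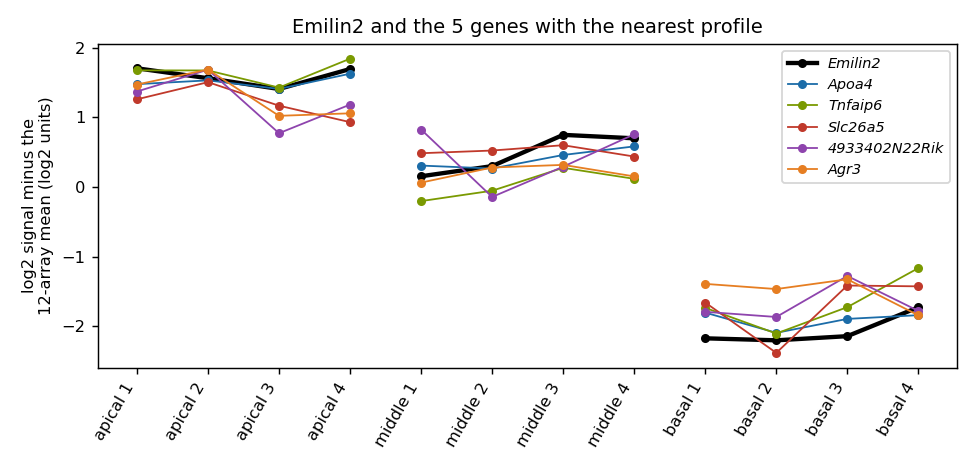
log2 signal of *Emilin2* and of the 5 genes with the nearest profile on each of the 12 arrays, each gene centred on its own mean (log2 units). Lines join the arrays of a turn only for legibility. With the main processing, *Emilin2* and *Apoa4* run closest, with a root mean square difference of 0.18.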

How the data were processed

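Total RNA of apical, middle and basal cochlear turns was labelled with Cy3 and hybridised to 12 1-colour Agilent mouse exon arrays (4 per turn). The deposited intensity of a spot is the processed signal of Agilent Feature Extraction 10.7.3.1, which the authors obtained after background subtraction and detrending and which is not normalized between arrays. The value table of the series held the same numbers. Signals were scaled by the 75th percentile of each array, after the methods of the study, and taken to log2. Control spots and 326 probes with an outlier flag were left out of 165984, and probes of a gene symbol were averaged. Where a spot is not above background the software puts a substitute in its place, so dim probes have little meaning. Probe positions are those of the array design on mm9.

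Differences were tested with limma 3.58.1 (R 4.3.3) fitted to the 12 arrays together, and p-values were adjusted by Benjamini-Hochberg across all genes or all probes; a gene passed at an adjusted p under 0.05, and the 2-fold limit needed the F test across turns as well. Differences between genes were tested by exact permutation. The scripts were tested on simulated data. Separate mice within a turn are stated, so p-values measure the spread between mice within a turn. With 4 mice in all and separate mice within a turn, the turns share their mice, which the main fit did not model. Any difference in scan date or slide between turns cannot be told apart from turn. Named genes were the 4 family members, the 5 nearest profiles by root mean square difference, and up to 3 genes per list with the largest apical minus basal difference that passed. The members and lists were chosen with earlier results of these data known. Alternatives were another scaling (quantile, median or spike-in probes), normexp correction, 16 added before log2, other ways to combine probes, other tests and leaving out each array. Some listed marker genes are not reported here.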

Additional observations from a re-analysis of the deposited data

Results flagged for a closer look

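In the base, the signal of *Emilin2* on replicate 4 was 406, while the other 3 arrays read 292 to 304. This array lay farther from the nearest of the others than Dixon's limit for 4 samples allows; the ratio of its gap to the range was 0.874. Of the 12 groups of 4 arrays looked at, this was 1, and chance flags about 5% of groups. Basal replicate 4 was the highest of the basal arrays for *Emilin1*, *Emilin3* and *Mmrn2* too. Without it the apical minus basal log2 difference of *Emilin2* was 3.76.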

How the results depend on the processing

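*Emilin2* kept its direction and passed in all 3 comparisons under every alternative run, with an apical minus basal log2 difference from 3.23 (spike-in scaling) to 4.01 and from 3.61 to 3.76 with 1 array left out. Values of the other genes crossed 0 or the threshold under some alternatives; the cause was not tested. For *Emilin1* between apex and base the value was -0.16 with probe signals averaged before log2, -0.0466 with normexp, -0.0648 with probes well above background alone, -0.0788 with quantile normalization, -0.0407 with median scaling and -0.34 with spike-in scaling. Between apex and middle it was -0.0305, -0.0409 and -0.10 with averaged signals, normexp and spike-in scaling, and -0.0238 to 0.22 with 1 array left out. Between middle and base it was -0.13 with averaged signals, -0.24 with the median over probes, -0.00566 with normexp, -0.16 with probes well above background, -0.11 with quantiles, -0.0470 with median scaling, -0.24 with spike-in scaling and -0.14 to 0.0995 with 1 array left out. With 1 array left out its probes 4, 5 and 6 ran from -0.0424 to 0.0608, -0.15 to 0.0777 and -0.12 to 0.12, and probe 6 was 0.00246 with normexp.

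*Emilin3* did not pass between apex and base under spike-in, median or quantile scaling (0.27, 0.57 and 0.50). It passed between apex and base with 16 added before log2 (0.46, adjusted p = 0.017), the limma trend and robust options (0.69, adjusted p = 0.049), averaged signals (0.44, adjusted p = 0.004), the median over probes (1.33, adjusted p = 0.011), normexp (0.26, adjusted p = 0.025) and probes well above background (0.88), and ran from 0.51 to 1.00 with 1 array left out. Between middle and base it passed with averaged signals (0.33, adjusted p = 0.033) and probes well above background (0.78, adjusted p = 0.00033), and ran from 0.19 to 0.69. *Mmrn2* passed between apex and base with averaged signals (-0.57), normexp (-0.17, adjusted p = 0.03) and spike-in scaling (-0.57), and between apex and middle with averaged signals (-0.33, adjusted p = 0.039), where it was 0.0174 with probes well above background. Between middle and base it was 0.0143 with the median over probes and -0.14 to 0.0416 with 1 array left out. *Mmrn2* probe 3 became -0.0451 with quantile normalization and -0.25 with spike-in scaling. The excess of *Emilin2* over *Emilin1* between apex and middle ran from 0.84 to 1.23, with an exact adjusted p of 0.0571 without any 1 of the apical arrays.

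Genes past the 2-fold limit between apex and base numbered 855, 568 with 16 added before log2 and 311 with normexp, 85, 39 and 14 between apex and middle, and 518, 314 and 169 between middle and base. The 855 split into 637 in favor of the apex and 218 in favor of the base, which became 518 and 324 with median scaling and 256 and 893 with spike-in scaling; the 85 (58 and 27) became 47 and 37, and 30 and 64; the 518 (429 and 89) became 220 and 244 with spike-in scaling. Among the listed and neighbouring genes, *Emid1*, *Dct*, *Car3*, *Cldn5*, *Esam*, *Itga4*, *Lyve1*, *Megf11* and *Mfap4* lost their call under at least 1 alternative, and *Emid1* (-0.22, spike-in scaling) changed direction. The labels do not say that a replicate number marks a mouse, so the numbers were not taken as pairs in the main fit. After turn means were removed, arrays sharing a number had a mean correlation of 0.09 (6 of 12 pairs above 0.1). Other pairs across turns had -0.03 (2 of 36 above 0.1), and 9 of 12 arrays were nearest to their own number. Pairing by number therefore remains possible. With the numbers as a block in limma, *Emilin3* passed between apex and base (0.69, adjusted p = 0.022) and *Emilin2* gave 3.65.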
